A study of Mus musculus with 4 samples.

Results

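Cdc27 and its surroundings on mouse chromosome 11 were examined in peak lists from ChIP-seq of Rad21, a subunit that closes the ring of the cohesin complex, in neural stem cells (NSCs) and astrocytes (ASTs). All peaks starting between 104264000 and 104512000 of build mm9 were taken, that is the gene span of about 104364000 to 104412000 with 100 kb on each side. This gave 17 of the 34562 peaks of both lists, 14 of 16157 from ASTs and 3 of 18405 from NSCs. The locus was chosen from the called peaks themselves, because AST peaks without an NSC partner crowd there, so the counts of such peaks are a description and carry no test.

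NSCs are dividing precursors that were derived and cloned from embryonic stem cells and kept in serum-free medium with EGF and FGF. ASTs are their post-mitotic progeny, made by replacing EGF with BMP in the presence of FGF, and the medium is also labelled as holding laminin. Each cell type had 1 Rad21 library, made with the same antibody, and 1 input library without antibody, 4 libraries in all. The labels give no genotype, and differences between the cell types have no replicate check. The depth of the libraries is unknown here, and the cell types could not be checked against markers in peak lists.

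Cdc27, also called APC3, encodes a subunit of the anaphase-promoting complex, the ubiquitin ligase that marks securin and mitotic cyclins for destruction. Loss of securin frees separase, which cuts Rad21 and opens the cohesin ring when sister chromatids part. In interphase, cohesin is found mostly where the zinc-finger protein CTCF holds its DNA motif, and it is there that Rad21 peaks are usually seen. The other genes of the complex were not placed among the peaks, because no mm9 gene positions were used here.

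The RefSeq gene table at hand is of build GRCm38.p6. It lists Cdc27 once, with a length of 48.1 kb, and places it on the minus strand, so that the gene starts at its upper end. In that table Kansl1 is the neighbour below, Myl4 overlaps the gene and Itgb3 lies above, within the same 100 kb on each side, beside a non-coding RNA (Gm11665) and 3 pseudogenes. The promoter is shown because the uppermost AST peak of the gene lay within 1 kb of the upper end of the span. These are the 250 bases before the start of Cdc27, at chr11:104550621-104550870 of GRCm38.p6, minus strand, 5′ to 3′, with CCCTC and its reverse GAGGG in capitals.

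Cdc27 promoter: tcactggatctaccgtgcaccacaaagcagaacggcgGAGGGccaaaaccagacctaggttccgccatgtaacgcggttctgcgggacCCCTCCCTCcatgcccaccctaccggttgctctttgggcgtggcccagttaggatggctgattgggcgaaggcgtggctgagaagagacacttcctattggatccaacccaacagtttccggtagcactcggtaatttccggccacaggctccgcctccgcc

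The 5 letters CCCTC, after which CTCF is named, occurred 3 times on either strand, of which a pair overlapped at positions 89 and 93 and the other lay on the reverse strand at position 38. They were present in 60.5% of the 32851 promoter windows of this length, Cdc27 being 1 of 19891. AGGGGGC, a run within the usual CTCF motif, was not in this window on either strand and was found in 9.43% of all. The window held 60% G and C. Since the promoter is in another build, whether the uppermost AST peak covers these bases was not determined. No mm9 sequence was at hand, so the bases under the peaks are not shown.

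Within the gene span ASTs had 12 Rad21 peaks and NSCs had 1. Of the 12, 11 overlapped no NSC peak by even 1 bp and are called AST-only, and the remaining one was shared. Over the whole AST list 25.3% of peaks were AST-only. In the flanks the lists matched: each held 2 peaks, 1 on either side, and all 4 were shared. None of the 3 NSC peaks of the window was NSC-only, against 34.5% of the NSC list.

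**Figure D1:**
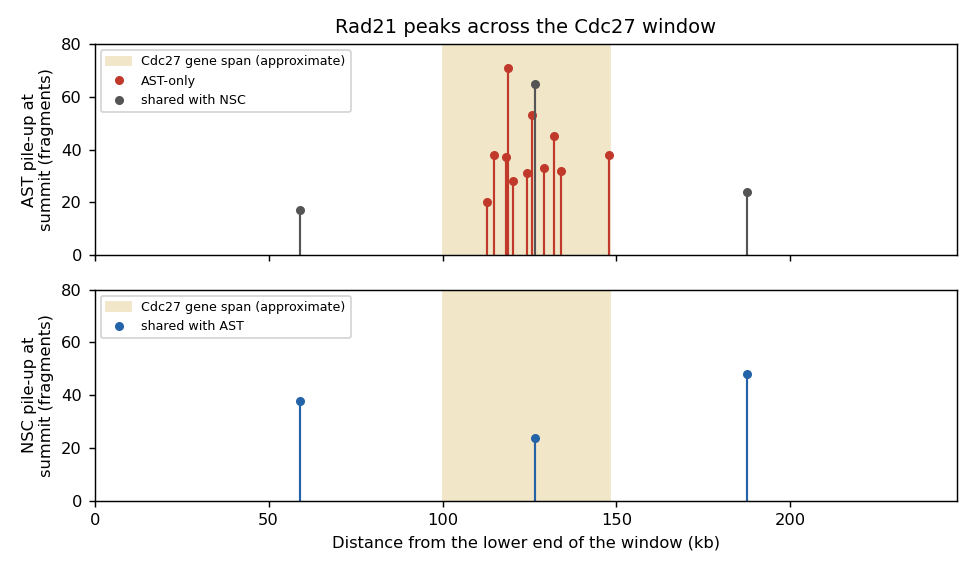
Pile-up at the summit (vertical axes) of each peak is shown against distance from the lower end of the window in kb (horizontal axis). AST peaks (top) are in fragments and NSC peaks (bottom) in the caller's units, 0.944 per fragment, though that axis label reads fragments. The 11 AST-only peaks (red) stand inside the shaded gene span with the shared AST peak (grey). The only NSC peak there (blue, pile-up 23.6, or 25 fragments) lies under that grey peak.

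For each peak the pile-up, the number of overlapping fragments at the summit, was recovered together with the caller's local background from the deposited fold enrichment, the ratio of the one to the other, and the deposited p. The usual background of a list, the median over its peaks of fold enrichment above 8, was 2.63 fragments in ASTs and 3.22 in NSCs. NSC pile-ups are in the caller's units, 0.944 per fragment. Intervals on fragments are exact Poisson 95% intervals, which cover counting error alone.

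The run began with its weakest member. The peak at 104376720 to 104376922 had a pile-up of 20 fragments, a fold enrichment of 3.62 and a −log10 q of 3.34. By fold enrichment it stood at percentile 1.17 of the AST list, and the other 11 AST peaks of the gene at 69.95 or above. The local background of this first peak was 5.52 fragments, and by pile-up it stood at percentile 34.1.

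Then came 4 peaks within 5.56 kb. At 104378661 to 104378897 the pile-up was 38 fragments (fold enrichment 12.9), and at 104381986 to 104382233 it was 37 (11.7). The peak at 104382736 to 104382990 was the highest of the run, with 71 fragments (55.5 to 89.6), a fold enrichment of 27 and a −log10 q of 69.1, and only 749 bp parted its summit from the one before. It stood at percentile 99.4 of the AST list and at rank 5 among all 4083 AST-only peaks. The peak at 104384006 to 104384221 had 28 fragments (10.65). None of these sites had an NSC peak nearer than 6399 bp.

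In the middle of the run lay the only site that both lists held. The AST peak at 104388159 to 104388375 had 31 fragments (fold enrichment 11.8), and the next, at 104389518 to 104389875, had 53 (20.15). The shared AST peak at 104390572 to 104390833 had 65 fragments (50.2 to 82.8) and a fold enrichment of 24.7. The single NSC peak of the gene span, at 104390621 to 104390786, lay wholly inside it, with a pile-up of 23.6, or 25 fragments (16.2 to 36.9), and a fold enrichment of 7.33. The AST peak before it ended 745 bp short of that NSC peak, the nearest approach of any AST-only peak of the run.

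Above the shared site 3 more AST-only peaks followed, all within 5.06 kb. Their pile-ups were 33 fragments at 104393018 to 104393242 (fold enrichment 12.55), 45 at 104396002 to 104396245 (11.4) and 32 at 104397860 to 104398075 (10.1). After a stretch of 13.5 kb without a peak, the run closed at 104411610 to 104411909, with 38 fragments (14.45). This last peak lay by the upper end of the gene span, where the promoter shown above would be sought, and the nearest NSC peak was 20.8 kb away.

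By strength, 11 of the 12 AST peaks of the gene had a fold enrichment of 10 or more, against 30.3% of the AST list, and 9 stood at percentile 75 or above. A pile-up of 25 fragments or more was reached by 11 of the 12, against 7537 of the 16157 peaks of the AST list. Of these 11 peaks of the gene, 10 were AST-only. Among all 7537 AST peaks of at least that pile-up, 13.4% were AST-only. The NSC list held peaks on usual background down to a pile-up of 12.3 in the caller's units, with a first percentile of 14.2. The AST-only peaks had 20 to 71 fragments, but in another library, and both depths are unknown. How many NSC fragments lay at the AST-only sites was not measured, since a peak list gives no values outside its peaks. Of the 52 AST-only peaks of chromosome 11 with a fold enrichment of 10 or more, 10 lay in this gene (19.2%).

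The peaks were closely and unevenly spaced. The first 11 AST peaks of the gene lay within 21.4 kb, and of the 11 distances between adjacent summits 10 were under 5 kb, with a median of 2034 bp and a range of 749 to 13755 bp. Over the AST list the median distance was 68.1 kb and 8.16% were under 5 kb. The 12 peaks covered 2981 bp, 6.21% of the gene span, and the NSC peak covered 166 bp (0.346%). Below the first peak 12.7 kb of the gene span held no peak of either list. How the peaks lie on the exons and introns of Cdc27 was not analysed here, because no mm9 annotation was used, and what kind of DNA the fragments came from was not tested.

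The 3 shared sites of the window went in different directions. At the shared site inside the gene the AST pile-up was 65 and the NSC pile-up 23.6, or 2.75 times as high in ASTs. In the lower flank it was 17 in ASTs, at 104322993 to 104323121, and 37.8 in NSCs, at 104322952 to 104323155, a ratio of 0.450. In the upper flank it was 24 at 104451504 to 104451704 and 48.1 at 104451470 to 104451812, a ratio of 0.499. The NSC peak was thus the higher of the pair in both flanks and the lower of the pair inside the gene.

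These ratios hold any difference in depth between the libraries, so they were read against all 12074 shared pairs, whose median ratio was 0.643 (quartiles 0.517 and 0.810). Both flank pairs were common in kind, with 13.5% and 21.5% of all pairs at or below them. The pair inside the gene was rare, since 12 pairs, itself included, had a ratio as high (0.0994%). Pairs with a ratio of 2 or more numbered 81 in all (0.671%). The AST peaks of these were 232 bp wide at the median, and those of the other pairs 214 bp. In its own list the AST peak of the gene stood at percentile 99.1 by fold enrichment and its NSC partner at 39.2. In the flanks the order was opposite, with percentiles of 30.2 and 3.89 in ASTs and 68.2 and 80.8 in NSCs. The value of 3.89 went with a local background of 5.53 fragments, above the usual 2.63. By pile-up that AST peak of the upper flank stood at percentile 51.4.

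**Figure D2:**
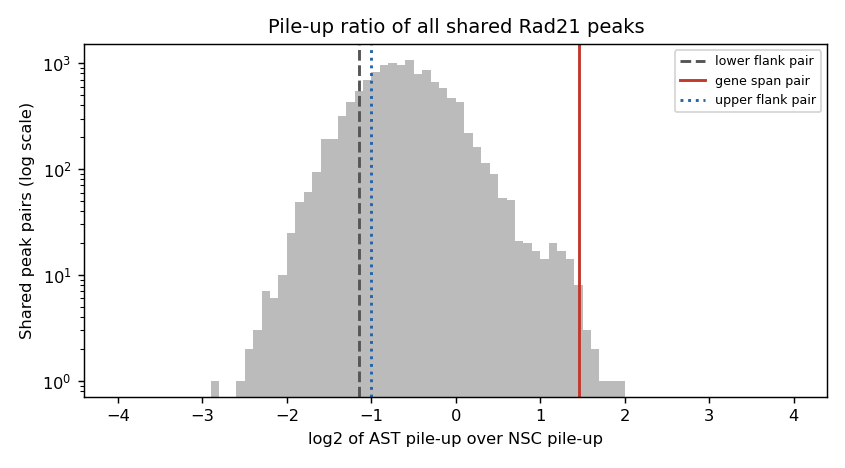
Number of shared peak pairs (vertical axis, log scale) by the log2 of the AST pile-up over the NSC pile-up (horizontal axis), for all 12074 pairs (grey). The flank pairs (dashed and dotted lines) fall within the bulk left of 0, and the pair inside the gene (solid red line) falls in a low shoulder at the right edge.

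Positions of the summits were nearly the same in both cell types at all 3 sites. They were 1 bp apart inside the gene, 13 bp apart in the lower flank and 0 bp apart in the upper flank, against a median of 19 bp over all pairs. Widths followed the pile-ups. Inside the gene the AST peak was 262 bp wide and enclosed the NSC peak of 166 bp, while in the flanks AST peaks of 129 and 201 bp lay inside NSC peaks of 204 and 343 bp. A width ratio as high as that inside the gene, 1.58, was found in 2.61% of pairs.

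The shapes of the 11 AST-only peaks fell into a common form with 3 exceptions. In 8 of them the summit lay between 0.4 and 0.6 of the width, from 103 to 128 bp after the start, and these were 216 to 255 bp wide (mean 232 ± 15.8 bp, SD over the 8 peaks). A summit near the middle was usual in the AST list. On usual background outside the window, peaks of 30 to under 40 fragments had a median summit fraction of 0.5 if AST-only (SD 0.0421). Shared peaks of that pile-up had a median of 0.490 (SD 0.0921). The exceptions were the weak first peak, whose summit lay only 20 bp after its start in a width of 203 bp, and a pair of wide peaks that reached far above their summits. Of these, the peak at 104389518 was 358 bp wide with its summit at 122 bp, and the uppermost peak of the gene was 300 bp wide with its summit at 108 bp. The start side of both was like that of the 8 peaks, and the extra width lay on the other side, which is the side of the gene's start.

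**Figure D3:**
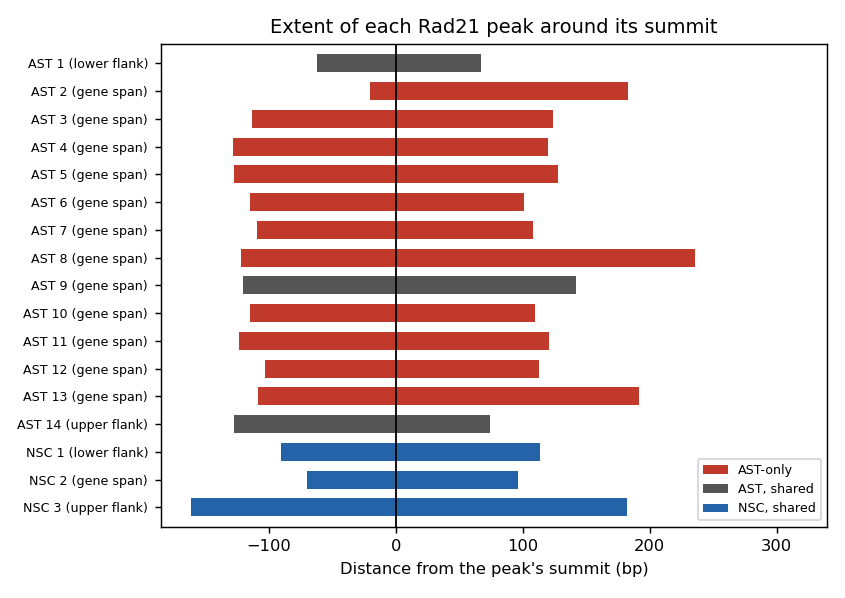
Extent of each of the 17 peaks before and after its summit (bp, horizontal axis), with 1 bar per peak in order of position, AST-only in red, shared AST in grey and NSC in blue. Most red bars reach 103 to 128 bp to the left of the summit and about as far to the right, and the bars of the eighth and the thirteenth AST peak reach 236 and 192 bp to the right.

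The widths of the peaks were set beside those of AST peaks elsewhere of like pile-up, which were on usual background. AST-only peaks with a pile-up of 40 to 59 fragments, 102 in number, had a median width of 226 bp, with 80% of them between 222 and 233 bp, while the members in this range were 244 and 358 bp wide. Shared AST peaks of the same pile-up, 938 in number, had a median of 301 bp (228 to 397). Both members were wider than the central 80% of those AST-only peaks and lay within that of the shared ones. Of the 2 members, the one of 244 bp lay nearer to the AST-only median and had a raised background, as 4 other AST peaks of the gene did. The highest peaks of the gene, 255 bp (AST-only) and 262 bp (shared), had only 4 AST-only peaks of 60 to 79 fragments to be set beside, of median width 233.5 bp, and 136 shared ones with a median of 361 bp and 80% of them between 246 and 478.5 bp. They lay nearer to the AST-only median, but both were wider than the central 80% of those 4 AST-only peaks (231.6 to 236.1 bp). Both were within the central 80% of the shared peaks, close to its lower bound. With members on usual background alone, and pile-up classes of at least 20 AST-only peaks elsewhere, a restriction chosen after the data had been seen, 5 of the 11 AST-only peaks could be compared. Of these, 3 lay within the central 80% of AST-only peaks elsewhere and 2, the pair of wide peaks named above, were wider. Without that restriction, 4 of the 12 AST peaks of the gene lay within the central 80% of AST-only peaks elsewhere. Another 7 were wider and 1 was narrower. All 12 lay within the central 80% of shared AST peaks of like pile-up, but that range is broad. At 30 to under 40 fragments, where 6 of the 12 fell, it was 197 to 342 bp. The central 80% of AST-only peaks of that pile-up, 217 to 227 bp, lay inside it. Being within the shared range therefore does not set the members apart from AST-only peaks elsewhere.

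**Figure D4:**
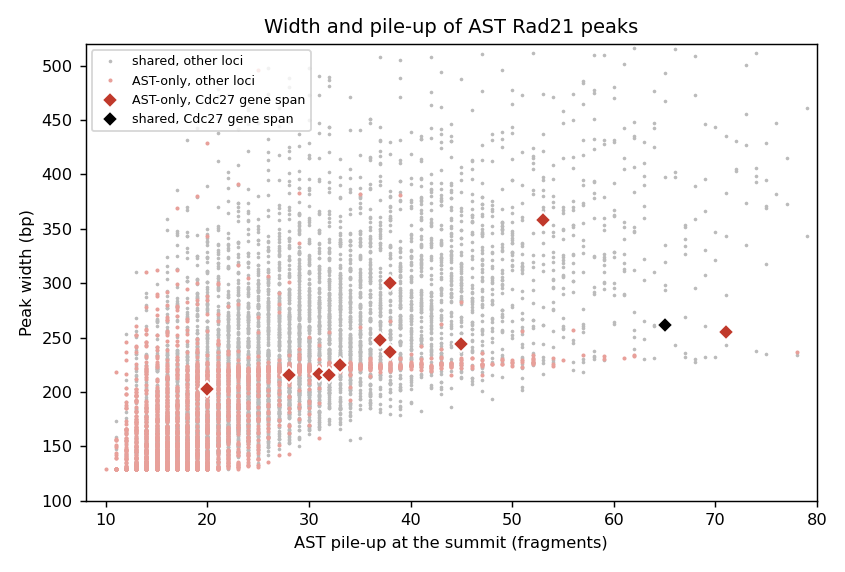
Width (bp, vertical axis) and pile-up (fragments, horizontal axis) of AST peaks on usual background outside the window, shared in grey and AST-only in pink, drawn up to the ends of the axes, with the 12 peaks of the gene as diamonds. AST-only peaks elsewhere gather in a flat band near 226 bp above 40 fragments, and the highest peaks of the gene (71 and 65 fragments) lie above that band at 255 and 262 bp.

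The background that the caller set against each peak was not the same along the gene. It was at the usual level, 2.63 fragments, at 7 of the 12 AST peaks and more than 1.1 times that at the other 5. Over the AST list 33.8% of peaks had such a raised background. The raised values were 5.52 at the weak first peak, 2.95 and 3.16 at the next pair, 3.95 at 104396002 and 3.16 at 104397860. The shared peak of the upper flank also had a raised background in ASTs (5.53), where that of its NSC partner was 3.22. Without all peaks of raised background, 6 AST-only peaks were left in the gene, and their median fold enrichment was 13.5 against 11.8 for all 11.

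No other stretch of the genome as long as the gene span held as many AST-only peaks. Among stretches that do not overlap, 1 had 10, 6 had 4, 34 had 3, 403 had 2 and 3126 had 1. The stretch with 10 lay on the same chromosome, at 3023784 to 3063310, and differed in kind: its median fold enrichment was 1.98 against 11.8 in Cdc27, and its median background 35.4 against 2.63. The next by count, with ties ordered by chromosome name, were on chromosome 1 at 186077745 to 186112400 (4 AST-only peaks, median fold enrichment 5.84) and on chromosome 11 at 3073482 to 3098326 (4, with 1.79). With only AST-only peaks of fold enrichment 10 or more counted, Cdc27 held 10 and no other stretch held more than 2. With only peaks on usual background counted, the lead was smaller, at 6 AST-only peaks in Cdc27 and 4 in each of the next stretches, on chromosomes 16 and 2. The most crowded stretch of NSC-only peaks held 6, with a highest fold enrichment of 5.57.

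**Figure D5:**
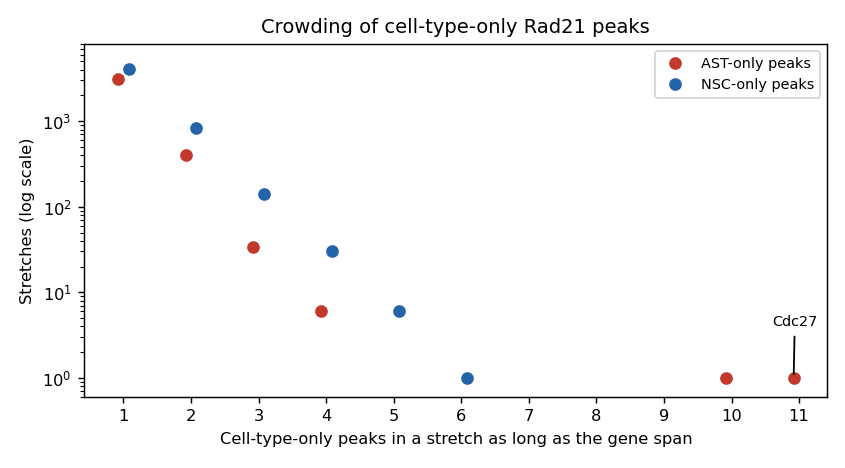
Number of non-overlapping stretches as long as the gene span (vertical axis, log scale) by the number of AST-only (red) or NSC-only (blue) peaks they hold (horizontal axis). Counts fall steeply to 4 in ASTs and 6 in NSCs, and the stretches with 10 and 11 AST-only peaks, the latter being Cdc27, stand apart.

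Outside the gene the locus was sparse. The nearest AST peaks to the run were 53.6 kb below it and 39.6 kb above it. Beyond the window, the next peaks below lay at 104177113 to 104177349 in ASTs (fold enrichment 12.2) and at 104177138 to 104177356 in NSCs (9.33), another shared site. Above, the next AST peak, at 104556850 to 104556996 (6.46), was AST-only, and the next NSC peak began at 104629451 (9.33). Peak density in the gene span was 250 per Mb in ASTs and 20.8 per Mb in NSCs, and over chromosome 11 it was 9.71 and 9.81 per Mb.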

How the data were processed

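Chromatin was fixed, sonicated and precipitated with a Rad21 antibody. Bowtie 1.0.0, MACS2 2.0.9 and build mm9 are named in the submitters' processing notes, and their settings are not given in the sources used here. Per cell type the authors deposited 1 peak list holding start, end and summit. Fold enrichment was deposited as a ratio of summit pile-up to local background, and p and q were deposited as −log10 values. Each list was matched to the only antibody-treated library of its cell type by title.

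Members and lists were chosen with earlier results of these data known. All peaks of the window are named, and so are the 3 densest other stretches. Positions count from 1. A peak was shared when it overlapped the other list by at least 1 bp. Pile-up and background were solved from fold enrichment and p, taking p as a Poisson tail and fitting 1 scale per list in steps of 0.001. The deposited −log10 p came back within 0.05 for 99.99% of AST and 99.7% of NSC peaks. With 1 library per cell type no test was run. Alternatives changed thresholds, list length, overlap rule, merging and flanks. The planned comparison with exons and with other genes of the complex was not run, because the gene table is of GRCm38.p6 and coordinates were not converted. Values were computed with scipy 1.17.1, pandas 2.3.3 and numpy 2.4.6 in Python 3.11.15, and figures drawn with matplotlib 3.10.9.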

Additional observations from a re-analysis of the deposited data

How the results depend on the processing

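Over 10 alternative settings, 70 values were recomputed, and 63 stayed within 1.5 times the reported count or SD, within the exact binomial 95% interval of the percentage (49.2 to 95.3%), or within 1 SD over the peaks for a median. The other 7 came from 3 settings. These bounds served as tolerances only. The peaks are neighbours from 1 library per cell type at a locus chosen for them, so the binomial interval measures no sampling error. It is also wide, so a percentage that stayed within it is weak evidence of stability. When both lists were held to a −log10 q of 10 or more, the NSC peak of the gene span (9.76) was lost, leaving 0. The shared AST peaks of both flanks (6.06 and 5.70) and the weak first peak of the gene (3.34) were lost too, and 100% of the 11 AST peaks left in the window were AST-only. These 11 included the shared AST peak of the gene, which counted as AST-only once its NSC partner fell below the cut. Without peaks of raised background, a setting added after the data had been seen, 8 AST peaks were left in the window and 6 AST-only peaks in the gene span. The SD of the summit position, as a fraction of the width, over the AST-only peaks was 0.129, and it fell to 0.0663 at a −log10 q of 5 or more, 0.0630 at 10 or more and 0.0840 without raised background, none of which held the weak first peak. At 5 or more, that peak was the only AST-only peak of the gene lost. No paired analysis was possible because each cell type had 1 Rad21 library. With the gap of up to 1 kb 10 AST-only peaks were left, with merged peaks 9, and with the gene span shortened by 1 kb at each end, which was also added later, 10. The unknown depth of both libraries limits every comparison of the lists.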
